A study of Danio rerio with 6 samples.

Results

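Krüppel-like factors were described in adult zebrafish inner ear cells, as 9 named genes of the 31387 in the deposited table. The genes were taken by symbol: klf2a, klf2b, klf3, klf4, klf6a, klf9, klf11a, klf11b and klf13. Another symbol asked for, klf5l, has no row of its own. The Ensembl identifier that current gene names give to klf5l (ENSDARG00000018757) stands in the table as klf18, and that gene is described with the other Klf genes. The genes were chosen with their levels in hair cells and surrounding cells known. Their differences between these cells are therefore given as a description, with no test.

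Hair cells are the mechanosensory receptor cells of the ear. They were marked by membrane-bound green fluorescent protein under the pou4f3 promoter in the line Tg(pou4f3:GAP-GFP)s273t, and were collected as GFP-positive cells pooled from lagena, utricle and saccule. Surrounding cells were the GFP-negative cells of the same organs and line, so they are a mixture of cell types rather than one type. All fish were females of 11 to 13 months, with no treatment named, and each sample held 2000 cells. There were 2 biological samples of hair cells and 1 of surrounding cells, each sequenced as 2 technical replicates. The labels do not say how many fish gave each sample. The surrounding cell columns carry WT in their names, a mark left unexplained there. Levels given below as 3 values are for hair cell replicate 1, hair cell replicate 2 and the surrounding cells, in that order, and a difference is that of hair cells minus surrounding cells in log2(RPKM + 1).

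Klf proteins are transcription factors with zinc fingers that bind GC-rich and CACCC sequences. Known groups differ in what they recruit. Klf2, Klf4, Klf5, Klf6 and Klf7 mostly activate transcription, Klf3, Klf8 and Klf12 bind the corepressor CtBP, and Klf9, Klf11 and Klf13 bind the corepressor Sin3. In mammals Klf2 and Klf4 are induced by blood flow in endothelium, Klf4 and Klf5 act in epithelia, and Klf2, Klf4 and Klf6 are also induced quickly by stress or stimulation. The genes with suffixes a and b are zebrafish duplicates.

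The technical replicates held 15843692 to 51566819 mapped reads, as recovered from the steps of the RPKM values, which scale reads to gene length and to mapped reads. Hair cell replicate 2 was sequenced 3.21-fold deeper than replicate 1. Technical replicates differed by about the sampling noise, with a mean chi-square per gene of 1.06 to 1.099 where sampling alone gives 1, and were averaged as 1 sample. Within a sample, their names share an index and differ in the lane mark. Their agreement may therefore not cover noise of amplification or library making. For the 9 Klf genes in 3 samples, 1 of 27 exact binomial tests of technical replicates had p under 0.05 (klf4 in hair cell replicate 1, 131 and 98 reads, p = 0.0404, adjusted p = 0.544). All 14 tested hair cell markers were called higher in hair cells. Only genes that reached 1 RPKM in a sample were tested. All of these markers but s100s and s100t were under 1 RPKM in the surrounding cells and could only be called higher. Nothing is therefore read from their count against the 17.7% of all genes tested that were called higher. S100s and s100t had 2.78 and 7.48 RPKM in the surrounding cells, so their calls were not limited in this way. A further marker, atoh1a, was listed at 0 in the surrounding cells. It was under 1 RPKM in both hair cell samples too, so this zero says little. A gene was called where the limma adjusted p was under 0.05 and the difference was at least 2-fold. Because the use of strand is unknown and near-identical copies can share reads, the split between duplicates such as klf2a and klf2b or klf11a and klf11b is uncertain to that extent.

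All 9 genes had reads in every sample, though klf2b had only 7 in hair cell replicate 1. Klf2a and klf2b differed most between the cell populations. In the surrounding cells klf2a was the most abundant Klf transcript, and in hair cells the 4 most abundant were klf9, klf18, klf11a and klf13. In these bulk samples, fewer cells of a type and less RNA per cell cannot be told apart. Of the 9 genes, 5 were at least 2-fold lower in both hair cell replicates than in the surrounding cells (klf2a, klf2b, klf3, klf4 and klf6a). Klf13 was the 1 gene at least 2-fold higher in both. Klf9, klf11a and klf11b met neither rule. Of all 15803 genes that reached 1 RPKM in a sample, 18.0% were lower and 18.6% higher by the same rule, and nothing is read from the Klf counts against these shares because the genes were chosen on this comparison. The median difference of the 9 genes was -1.95 on the log2(RPKM + 1) scale, against 0.15 over all genes tested. For the same reason nothing is read from this gap. All 9 passed the filter of 1 RPKM. Klf2b and klf3 did so only through the surrounding cells, and the other 7 reached 1 RPKM in every sample.

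**Figure D1:**
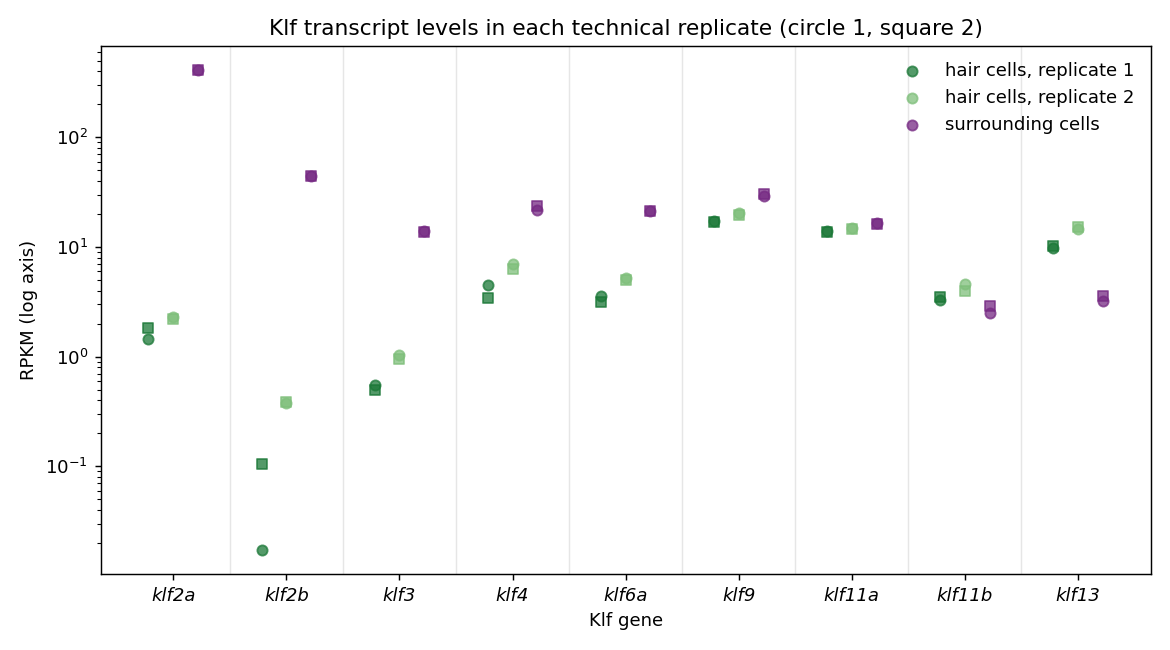
RPKM (log axis) of the 9 Klf genes in the 2 technical replicates (circle and square) of both hair cell samples and of the surrounding cells. The latter lie far above both hair cell samples for klf2a (410 RPKM) and klf2b (44.1 RPKM), close to them for klf11a, and below them for klf13 (3.38 RPKM).

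Among the activators, klf2a (ENSDARG00000042667, chromosome 22), the zebrafish gene for the flow-induced factor Klf2, had 1.46 and 1.82 RPKM in the technical replicates of hair cell replicate 1. It had 2.32 and 2.21 RPKM in those of replicate 2, and 412 and 409 RPKM in those of the surrounding cells. These values rest on 51, 63, 261 and 245 reads in hair cells and on 15505 and 15216 reads in the surrounding cells. The hair cell samples are thus low and close together, and the surrounding cells stand far apart. The mean level was 1.95±0.443 RPKM in hair cells (SD, n = 2), and the surrounding cell level was 210-fold higher. The difference on the log2(RPKM + 1) scale was -7.28 against hair cell replicate 1 and -6.98 against replicate 2. Ordered by level, klf2a was gene 102 in the surrounding cells, and genes 10728 and 9451 in the hair cell replicates.

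Its duplicate klf2b (ENSDARG00000040432, chromosome 19) had 0.0608 RPKM in hair cell replicate 1, 0.383 RPKM in replicate 2 and 44.1 RPKM in the surrounding cells. The first value rests on 7 reads and the second on 142, against 2756 and 2739 reads in the surrounding cell technical replicates. Both duplicates were therefore low in both hair cell samples and high in the surrounding cells. The surrounding cell level of klf2b was 726-fold that of hair cell replicate 1 and 115-fold that of replicate 2, so the size of this fold depends on which replicate is used. Klf2a exceeded klf2b in every sample, by 27.0-fold and 5.93-fold in the hair cell replicates and by 9.30-fold in the surrounding cells.

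Klf4 (ENSDARG00000079922, chromosome 21), a factor of epithelial differentiation and of pluripotency in mammals, had 3.96 RPKM in hair cell replicate 1, 6.67 RPKM in replicate 2 and 22.8 RPKM in the surrounding cells. Klf6a (ENSDARG00000029072, chromosome 24), which belongs to a stress-induced factor, had 3.37, 5.06 and 21.4 RPKM in the same order. Both genes were lower in hair cells but clearly present there, with 229 and 1237 reads for klf4 and 362 and 1746 reads for klf6a in the hair cell samples. The surrounding cell level was 4.28-fold the hair cell mean for klf4 and 5.07-fold for klf6a. Their differences were -1.95±0.44 and -2.12±0.33 on the log2(RPKM + 1) scale (SD over the hair cell replicates, n = 2).

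Klf3 (ENSDARG00000015495, chromosome 1), a CtBP-binding repressor, had 0.524 RPKM in hair cell replicate 1, 0.991 RPKM in replicate 2 and 13.8 RPKM in the surrounding cells. It followed the activators above in direction, with a surrounding cell level 18.2-fold the hair cell mean and a difference of -3.09±0.27 on the log2(RPKM + 1) scale.

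The genes of the Sin3-binding group did not share a direction. Klf9 (ENSDARG00000068194, chromosome 5), which is induced by glucocorticoid and thyroid hormone, had 17.05 RPKM in hair cell replicate 1, 20.1 RPKM in replicate 2 and 29.8 RPKM in the surrounding cells. Klf11a (ENSDARG00000030844, chromosome 20) had 13.8, 14.6 and 16.3 RPKM, and its duplicate klf11b (ENSDARG00000013794, chromosome 17) had 3.40, 4.29 and 2.71 RPKM. These 3 genes stayed within 2-fold of the surrounding cells in both hair cell replicates, with differences of -0.66, -0.19 and 0.38 on the log2(RPKM + 1) scale. With 1 surrounding cell sample it cannot be said that their levels were equal.

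Klf13 (ENSDARG00000061368, chromosome 25), a close relative of Klf9, had 10.02 RPKM in hair cell replicate 1, 14.9 RPKM in replicate 2 and 3.38 RPKM in the surrounding cells, from 815, 3892 and 296 reads. Both hair cell samples thus lay well above the surrounding cells, by 3.69-fold in the mean and by 1.33 and 1.86 on the log2(RPKM + 1) scale. Klf9 exceeded klf13 by 1.70-fold and 1.35-fold in the hair cell replicates and by 8.82-fold in the surrounding cells.

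**Figure D2:**
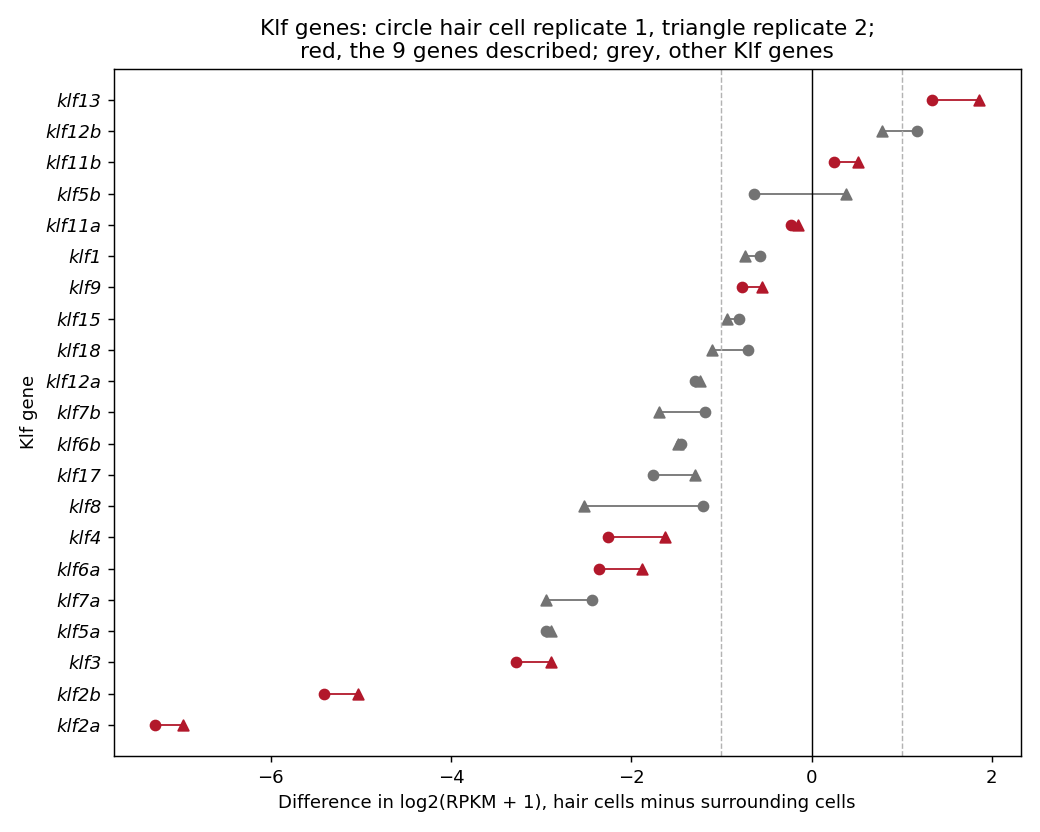
Difference in log2(RPKM + 1), hair cells minus surrounding cells, for the 21 Klf genes of the table, with hair cell replicate 1 as circles and replicate 2 as triangles, the 9 genes described in red and the others in grey. Dashed lines mark a 2-fold difference, which klf13 passes on the higher side in both replicates (1.33 and 1.86) and klf2a on the lower side (-7.28 and -6.98).

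In order of level, hair cells had klf9 (18.6±2.14 RPKM), klf11a (14.2±0.569), klf13 (12.5±3.46), klf4 (5.32±1.92), klf6a (4.21±1.20), klf11b (3.84±0.625), klf2a (1.95±0.443), klf3 (0.758±0.330) and klf2b (0.222±0.228), as mean RPKM±SD of 2 samples. The samples of klf11a and klf13 overlapped, as did those of klf4, klf6a and klf11b, so the order within these groups is not larger than the spread. All other neighbours in this order were separate in both samples. In the surrounding cells the order was klf2a, klf2b, klf9, klf4, klf6a, klf11a, klf3, klf13 and klf11b, with no spread to judge it by.

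Summed over the 21 Klf genes of the table, Klf transcripts came to 90.8, 97.1 and 649 RPKM. Klf2a and klf2b together made up 1.87%, 2.73% and 70.0% of this sum. Without these 2 genes the sums were 89.1, 94.5 and 195 RPKM. Klf9, klf11a, klf11b and klf13 together had 44.3, 53.9 and 52.2 RPKM, or 48.8%, 55.5% and 8.04% of the Klf sum. The summed level of these 4 Sin3-binding genes in the surrounding cells thus lay between those of the hair cell samples, while their share of the Klf sum did not.

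**Figure D3:**
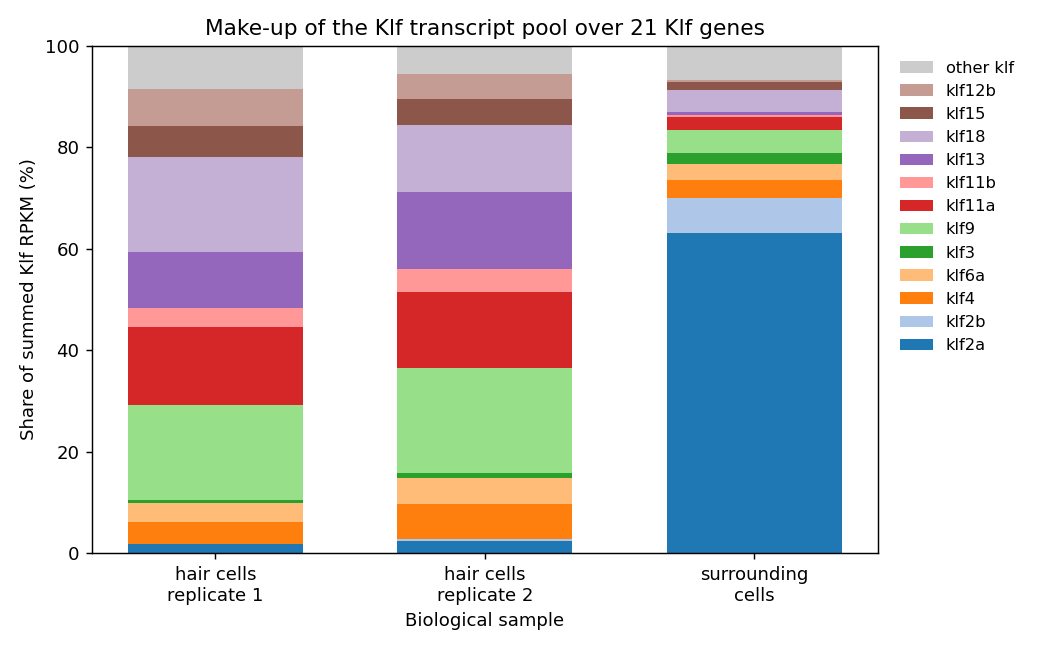
Share of the summed RPKM of 21 Klf genes (percent) taken by each gene in the 3 biological samples. Klf2a fills 63.2% of the bar in the surrounding cells and 1.81% and 2.33% in the hair cell replicates, where klf9 (18.8% and 20.7%), klf11a (15.2% and 15.0%) and klf13 (11.0% and 15.4%) are large.

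The hair cell replicates were compared with each other as a description. The genes were chosen with their hair cell levels known, so nothing is read from their count below against other genes. All 9 genes were higher in replicate 2 than in replicate 1, against 52.3% of all genes tested and 4 of the 12 other Klf genes. None was 2-fold apart on the log2(RPKM + 1) scale, where 2.66% of all genes tested were. As a ratio of RPKM, replicate 2 over replicate 1, klf2b stood at 6.32 (exact 95% interval 2.99 to 16.01), klf3 at 1.89 (1.45 to 2.49), klf4 at 1.68 (1.46 to 1.95) and klf13 at 1.49 (1.38 to 1.61). The intervals cover counting error only, since amplified reads are not independent molecules. The interval of klf11a, at 1.06 (0.982 to 1.14), was the one of the 9 that held 1. With RPKM rescaled to the sum without mitochondrially encoded genes, klf11a turned to 0.979 and the count was 8 of 9, against 44.2% of all genes tested. Sequencing depth differed between these replicates, as given above, and the labels give them different name prefixes (fish and zhc). The surrounding cells share the prefix fish with replicate 1. Their depth was also like that of replicate 1, at 17281834 and 17066800 mapped reads against 16058483 and 15843692. The summed level of 30 epithelial markers was 1002 RPKM in replicate 1 and 1269 RPKM in replicate 2, with 16 of the 30 higher in replicate 2. Most of these sums came from cldnb (374 and 536 RPKM), krt5 (272 and 290 RPKM) and epcam (191 and 249 RPKM). The sums therefore do not stand for the list as a whole. Of the other marker lists, 9 of 17 leukocyte, 7 of 19 endothelial and 3 of 16 fibroblast markers were higher in replicate 2. The part of these in the result was not tested.

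**Figure D4:**
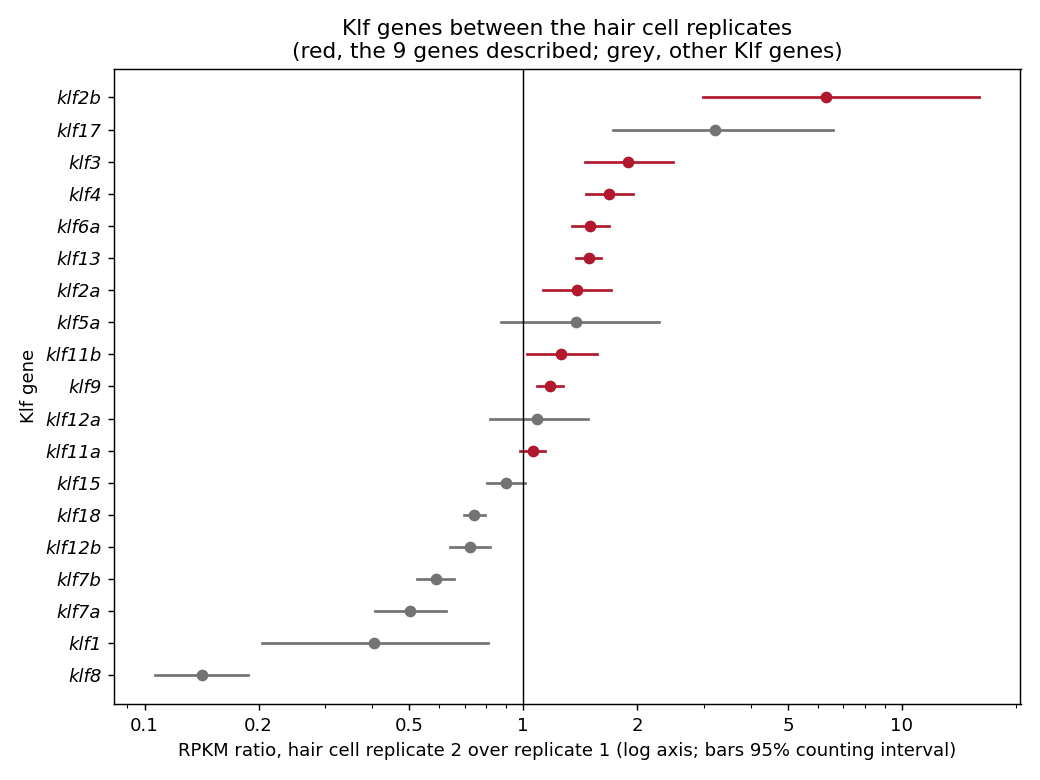
RPKM ratio of hair cell replicate 2 over replicate 1 (log axis) for Klf genes with at least 5 reads in both, with exact 95% intervals for counting error, the 9 genes described in red and other Klf genes in grey. All 9 red points lie above 1, from klf11a at 1.06 to klf2b at 6.32, and klf8 lies lowest at 0.142.

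The other members of the family were tested in the fit across all genes. Except for klf18, they are the genes that the choice above left out, so their counts are not independent of it. Klf18 was itself asked for, as klf5l, so nothing is read from its test. The table held 12 further Klf genes, of which 11 reached 1 RPKM in a sample, and 5 of these were called lower in hair cells and none higher. Over all genes tested 18.0% were called lower and 17.7% higher. Klf5a (ENSDARG00000015506, chromosome 1), a duplicate of the epithelial factor Klf5, had 0.129, 0.178 and 7.73 RPKM, a difference of -2.92 (SE 0.20, limma adjusted p = 0.00720). Klf7a had 1.51, 0.762 and 12.6 RPKM, with a difference of -2.69 (SE 0.36, adjusted p = 0.0155). Klf17 and klf6b were called lower with differences of -1.53 and -1.46. Klf6b had 1, 0 and 70 reads, and its duplicate klf6a was 11.9-fold above it by RPKM in the surrounding cells. Klf12a, named after its value was seen, was the remaining call at -1.27. Klf5a, klf17, klf6b and klf12a were under 1 RPKM in both hair cell samples. They passed the filter only through the surrounding cells, so they could only be called lower. The calls of klf17 and klf12a were lost with a pseudocount of 0.1 or 5 RPKM and with no filter, that of klf6b with a pseudocount of 5 RPKM, and that of klf7a with no filter, and klf17, klf12a and klf6b were too low to be tested at a filter of 5 RPKM. The call of klf5a was kept in all of these. Limma voom on recovered reads called 8 of the 11 lower and 0 higher. Over all genes tested, voom called 3346 lower and 2907 higher. In the limma fit on RPKM, 9 of the 11 had an unadjusted p under 0.05. Such p-values were common over all genes tested, since for klf12b a limma p of 0.0462 became an adjusted p of 0.0930. Nothing is therefore read from this count.

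Klf18, the gene now named klf5l, had 17.1, 12.7 and 28.5 RPKM (difference -0.90, SE 0.28, limma adjusted p = 0.0827). It came after klf9 by mean hair cell level, at 14.9±3.11 RPKM, and its samples overlapped those of klf9, klf11a and klf13. Klf15, a glucocorticoid-induced factor of metabolism, had 5.48, 4.93 and 10.4 RPKM (difference -0.87, adjusted p = 0.0700). Klf12b, named after its value was seen, had 6.62, 4.80 and 2.38 RPKM (difference 0.98, adjusted p = 0.0930). Duplicates thus differed in which copy was the more abundant. Klf12b exceeded klf12a by 8.73-fold and 5.80-fold in the hair cell replicates, whereas klf12a was 1.39-fold above klf12b in the surrounding cells. Klf7b likewise exceeded klf7a by 1.68-fold and 1.96-fold in hair cells and stood at 0.562 of it in the surrounding cells. Klf8, a CtBP-binding repressor also named after its values were seen, had 2.28, 0.324 and 6.59 RPKM, so the hair cell samples were themselves far apart, at a ratio of 0.142 (exact 95% interval 0.107 to 0.187).

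The Sp factors, which share the zinc finger type of Klf proteins, had 12 genes in the table and 7 tested. Sp8a and SP6 were called lower and none was called higher, where 18.0% of all genes tested were called lower and 17.7% higher. Both passed the filter of 1 RPKM only through the surrounding cells, so they could only be called lower. Sp8a, a developmental factor, had 0.476, 0.228 and 2.30 RPKM (difference -1.29, SE 0.20, adjusted p = 0.0208). The call of sp8a was lost with a pseudocount of 0.1 or 5 RPKM, with no filter and with the second technical column alone. SP6 had 1 read in hair cells, and its call was lost with a pseudocount of 5 RPKM, with the second technical column alone and by voom. Neither gene reached a filter of 5 RPKM. The median difference was -1.44 over the 11 tested Klf genes and -0.64 over the 7 tested Sp genes.

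Genes known in mammals to induce or restrain Klf2 and Klf4 had no call. The single genes named from this group and from the cofactors below it were chosen after their values were seen. These are the kinases Map3k2, Map3k3, Map2k5 and Mapk7, the Mef2 factors, and the Krit1, Ccm2 and Pdcd10 proteins. Of 11 tested, none was called in either direction, where 17.7% of all genes tested were called higher and 18.0% lower. Of the 11, 1 had an unadjusted p under 0.05 (map3k3), a level common over all genes tested, and voom called 1 lower. Their summed level was 66.0, 71.1 and 72.4 RPKM, and their median difference was -0.08. Mapk7 (also called Erk5) had 2.11, 1.55 and 3.03 RPKM. Ccm2 had 3.33, 4.25 and 1.77 RPKM.

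Cofactors of Klf proteins were also without a call among 17 tested, where 17.7% of all genes tested were called higher and 18.0% lower. Of the 17, 2 had an unadjusted p under 0.05, a level common over all genes tested, and voom called 2 higher and 2 lower. The group covers the corepressors CtBP, Sin3 and Ncor with histone deacetylases, the coactivators p300 and CBP, and ubiquitin ligases of Klf proteins. Their summed level was 139, 131 and 129 RPKM. The CtBP gene ctbp2a had 6.71, 4.15 and 2.29 RPKM, and its relative ctbp1 had 7.83, 5.19 and 10.02 RPKM. The Sin3 genes sin3aa and sin3ab had 3.15, 2.44 and 3.69 RPKM and 2.53, 2.05 and 2.33 RPKM.

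Hormone receptors and glucocorticoid-induced genes, the setting of klf9, went in no common direction. Of 14 tested, 3 were called lower and none higher, where 18.0% of all genes tested were called lower and 17.7% higher, so the count of lower genes is near the background. The median difference was 0.30, and 5 had an unadjusted p under 0.05, a level common over all genes tested. Voom called 2 higher and 4 lower. The called genes were cebpd, which encodes a C/EBP transcription factor, with 42.4, 73.0 and 372 RPKM (difference -2.72, SE 0.41, limma adjusted p = 0.0197), the pyruvate dehydrogenase kinase gene pdk2a (-1.80) and tsc22d3 (-1.40), the gene for a glucocorticoid-induced leucine zipper. The glucocorticoid receptor gene nr3c1 had 9.21, 9.89 and 11.4 RPKM, and fkbp5, a further glucocorticoid-induced gene, had 38.7, 72.5 and 42.6 RPKM. Both were named after their values were seen.

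Immediate early and stress genes were described because Klf2, Klf4 and Klf6 respond quickly to stimulation. Of 40 tested, 9 were called higher and 9 were called lower in the hair cells, and the median difference was 0.07. Both counts are near the 17.7% and 18.0% of all genes tested that were called higher and lower. The higher genes were led by EGR4 and hsp70.2 with differences of 5.005 and 4.36, jun with 2.55, egr2a with 1.89 and fosb with 1.87. Jun, an AP-1 subunit gene, had 591, 726 and 111 RPKM. The lower genes were led by cyr61, zfp36l2, zfp36l1a, cebpb and fosl2, with differences of -3.95, -2.40, -2.34, -2.24 and -2.07. Cyr61, which encodes a matrix protein, had 8.53, 8.40 and 145 RPKM. The Egr genes had no common direction, with egr1, egr2a and EGR4 called higher, and egr2b and egr3 without a call at 0.08 and -0.85.

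The genes whose levels were most like those of klf2a were found by Euclidean distance on log2(RPKM + 1) over the 3 samples. They were zgc:193505, ucmab, si:dkey-238c7.13, anxa1a and ctgfa, at distances of 0.49 to 0.94. Anxa1a, an annexin gene, had 2.96, 1.99 and 671 RPKM, and ctgfa, the connective tissue growth factor gene, had 3.75, 2.32 and 544 RPKM. Nearest to klf2b were si:ch211-69b7.6, itgbl1, zgc:153284, zgc:64022 and the claudin gene cldni, at 0.35 to 0.46. Such a likeness over 3 samples is shared by any gene that is abundant in the surrounding cells and scarce in hair cells to the same degree.

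Epithelial, fibroblast, leukocyte and muscle markers were called lower in hair cells more often than higher, while red blood and supporting cell markers were not. Over all genes tested 18.0% were called lower and 17.7% higher. Epithelial markers were called lower in hair cells for 27 of 29 tested, with a summed level of 1002, 1269 and 15205 RPKM. The keratin genes krt91, krt5 and krt97 were the most abundant, at 4159, 3104 and 1835 RPKM in the surrounding cells. Fibroblast markers were lower for 14 of 16 tested (171, 203 and 1272 RPKM summed) and leukocyte markers for 7 of 14 tested with 1 higher (99.8, 97.9 and 1341 RPKM summed). Muscle markers were lower for 6 of 7 tested with 1 higher (13.5, 16.2 and 62.5 RPKM summed). Many lower calls of the epithelial and fibroblast lists were of genes under 1 RPKM in both hair cell samples, such as krt91 and lum. So were some of the leukocyte list, such as lcp1, and all 6 of the muscle list, such as ckma. Such genes passed the filter only through the surrounding cells and could only be called lower. Nothing is therefore read from the muscle count against the shares over all genes. The higher calls, lyz and desma, were under 1 RPKM in the surrounding cells and could only be called higher. Red blood cell markers had no call among 6, none at an unadjusted p under 0.05 and 2 lower by voom (291, 105 and 388 RPKM summed). Genes of the supporting cell list went mostly the other way, with 9 of 13 higher in hair cells and 2 lower (1977, 2211 and 71.9 RPKM summed). The higher genes were cx30.3, jag2b, lfng, otogl, otomp, six1b, stm, tecta and tectb, and the lower ones were cx43 and fgfr3. Otogl, six1b and tecta were under 1 RPKM in the surrounding cells and could only be called higher. Most of the hair cell sums came from cx30.3, stm and tectb. No marker of these lists was at 0 in every column. The claudin gene cldne, the interleukin receptor gene il2rga and the troponin gene tnni2a.4 were listed at 0 in both hair cell samples. In the surrounding cells they had only 0.0418, 0.615 and 0.419 RPKM, so these zeros say little. The supporting cell marker sox2 was listed at 0 in the surrounding cells, with 0.0152 and 0 RPKM in the hair cell samples. The part of these cell types in the Klf differences was not tested.

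Endothelial markers are the closest to the known site of Klf2. Of 16 tested, 12 were called lower in hair cells and esama was called higher, against 18.0% lower and 17.7% higher over all genes tested. All 12 were under 1 RPKM in both hair cell samples and passed the filter only through the surrounding cells. They could therefore only be called lower, and nothing is read from their count against these shares. The summed level of the 19 endothelial markers was 22.2, 15.7 and 53.2 RPKM. Most of the hair cell sums came from esama, at 18.7 and 11.6 RPKM, and the other 18 genes summed to 3.51, 4.14 and 50.4 RPKM. The most abundant in the surrounding cells were fli1a, flt4 and egfl7, at 9.55, 8.21 and 4.40 RPKM, and the endothelial cadherin gene cdh5 had 2.13 RPKM. RPKM levels of different genes do not measure the share of cells. The part of endothelial cells in the Klf differences was not tested.

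The low Klf levels in hair cells can be set beside those of the other transcripts of the surrounding cells. Klf2a in hair cells was at 0.400% and 0.553% of its surrounding cell level, and klf2b at 0.138% and 0.867%. The keratin gene krt91 was at 0.0176% and 0.0149%, krt5 at 8.78% and 9.34%, ctgfa at 0.688% and 0.426%, and the antigen presentation gene cd74a at 3.88% and 2.74%. Further fibroblast markers were higher, with the matrix genes dcn at 17.5% and 16.8% and sparc at 43.9% and 62.1%. Klf3 was at 3.80% and 7.17%, klf4 at 17.4% and 29.3% and klf6a at 15.8% and 23.7%. The markers given here run from 0.0149% to 62.1%, too wide a range for a Klf level within it to mean anything by itself. The cause of the low hair cell levels was not tested.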

How the data were processed

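RNA of 2 hair cell samples and 1 surrounding cell sample was made into cDNA with a SMART-Seq kit, a full-length amplifying method. The authors mapped reads to GRCz10, per the submitters' processing notes. For the aligner, counter, annotation and strand setting, nothing is given in the sources used here. The deposited RPKM values scale reads to gene model length and mapped reads, with 1 column for each of 6 technical replicates. The authors' 4 columns of means and SDs mix technical with biological replicates and were left out. A repeated row of clic5a was dropped.

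Technical columns were averaged. Whole reads (within 0.001 of a read) were recovered from the RPKM steps for all 26520 genes above 0, in lowest terms for each gene, so up to a factor common to its columns. Genes reaching 1 RPKM in a sample were fitted on log2(RPKM + 1), which understates changes of low genes, with limma 3.58.1 in R 4.3.3 (trended variance), and calls needed an adjusted p (Benjamini-Hochberg) under 0.05 and at least 2-fold. The fit has 1 residual degree of freedom (3.42 moderated) from the hair cell pair, so the lone surrounding cell sample is assumed to vary alike, and nothing says that the samples came from separate animals. An exact permutation test cannot go below 0.333. A rule of size (at least 1 RPKM in the higher group, 2-fold in both hair cell replicates) used no test. The fit and the recovery were run on simulated data. For the fit, all simulated samples had the same spread, so this could not check the assumption about the lone surrounding cell sample.

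The Klf genes and the lists were chosen with earlier results of these data known. Named genes were the 9 Klf genes, up to 5 called genes per list and direction by size, other Klf or Sp genes with 10 RPKM in a group, the 5 nearest patterns of the 2 most changed Klf genes, and the 3 most abundant markers of a list. A few were named after their values were seen. Alternatives changed the pseudocount, filter, scaling, technical column and replicate, or used voom on recovered reads. No chromosome position beyond the file's chromosome is given, since the reference table is of another build.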

Additional observations from a re-analysis of the deposited data

How the results depend on the processing

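The 9 Klf differences kept their direction in all 11 alternatives, of which the 2 filters cannot move a single gene's difference. Leaving out a hair cell replicate could not turn a direction either, since each gene had the same direction against both replicates. Nor could another pseudocount or a single technical column. For each gene, every hair cell column lay on the same side of both surrounding cell columns. Only the changes of scaling and voom could have turned a direction. Klf2a ranged from -7.66 to -5.90, klf2b from -7.44 to -3.23, klf3 from -4.08 to -1.71 and klf13 from 1.05 to 1.90 on the log2 scale, each nearest to 0 with a pseudocount of 5 RPKM. The 5 lower Klf genes met the rule of size in the 10 alternatives where it was applied (not voom), and klf13 did not with a pseudocount of 5 RPKM (0 higher). Leaving out a replicate or changing the filter could not make these genes fail. The rule already held in each replicate, and each gene exceeded 5 RPKM in its higher group. No paired analysis was possible because the surrounding cells had only 1 sample. That sample shares its replicate number and its name prefix (fish) with hair cell replicate 1.

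Over all genes, calls fell from 2799 higher and 2851 lower to 1603 and 1225 with a pseudocount of 5 RPKM, to 1464 and 1740 with no filter, and to 2709 and 1713 where genes had to reach 5 RPKM, which moves the split towards higher calls. By size, 2942 higher and 2838 lower became 1529 and 1146 with that pseudocount, and 1589 lower with that filter. Of the other Klf and Sp genes 7 were lower, against 4 with a pseudocount of 0.1 RPKM, 2 with 5 RPKM, 3 with no filter, 4 with a filter of 5 RPKM and 11 by voom. Klf5a was among the calls in each of these. By voom, 1 regulator of Klf2 was lower, while 2 cofactors lay higher and 2 lay lower. Where genes had to reach 5 RPKM, 1 cofactor and 2 hormone-related genes were higher, the latter also 2 by voom. With no filter 1 hormone-related gene was lower instead of 3, and immediate early calls fell from 9 and 9 to 4 higher and 2 lower. The cause of these changes was not tested. Leaving out a hair cell replicate leaves 1 sample against 1, so no test was run. With 7 reads in hair cell replicate 1, the klf2b level is limited by depth.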
